A study of Mus musculus with 12 samples.

Results

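The expression of 56 genes of the mitotic spindle, the kinetochore and the spindle checkpoint was followed in mouse tumourspheres in which the Met receptor, the FGF receptors or both were inhibited. The members were named with earlier results of these data known, although the rule itself lists gene names and uses no measured value. All 56 were found among the 55573 rows of the count table, and all 56 were among the 13836 genes that passed the filter on low counts. They were placed in 8 classes by what their proteins do, which hold 6 kinases, 12 kinesins, 8 proteins of the spindle and of cytokinesis, 14 kinetochore proteins, 3 subunits of the chromosomal passenger complex, 5 cyclins and Cdk1 regulators, 5 proteins of the checkpoint and of anaphase, and 3 proteins of chromosome structure.

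The cells were 3 lines (A1005, A1129, A1471) from different spindloid (spindle-celled, mesenchymal) breast tumours of mice of the genotype MMTV-Metmt;Trp53fl/+;Cre. These mice carry a mutant Met transgene under the MMTV promoter, which is active in mammary epithelium, and 1 floxed allele of Trp53 that Cre can delete. This genotype is common to every library, the DMSO controls included, and neither the activity of the transgene nor the loss of Trp53 in these lines was checked here. Spheres grown in suspension were treated for 24 h with the solvent DMSO, with Crizotinib (an inhibitor of Met), with PD173074 (an inhibitor of FGF receptors) or with both, named Combo. There was 1 library per line and treatment, so n = 3 lines per treatment, and the lines stand for separate tumours of 1 genotype. Total counts ran from 13031492 to 17750476 reads per library, no 2 of the 12 libraries held identical counts, and the lowest count of any member in any library was 27 reads (Cenpk). Vim, a filament of mesenchymal cells, was read at 1900 to 3199 CPM (counts scaled to library size), whereas the summed level of 10 epithelial markers was 19.9 to 75.7 CPM with DMSO and 9.34 to 52.1 CPM with Combo. Krt5 and Cldn7 were at 0 in every library, and only 4 of these 10 markers, those included, stayed under 1 CPM in every library. The summed level of 10 leukocyte markers was 4.53 to 31.4 CPM with DMSO and 8.51 to 42.2 CPM with Combo, with Nkg7 and Lyz2 among those at 0 in every library. Of these 10 markers, 8 stayed under 1 CPM in every library. The summed levels were 0.690 to 1.12 and at most 3.47 CPM for 8 endothelial markers, 13.4 to 47.0 and 11.7 to 49.5 CPM for 8 adipocyte markers, and 3557 to 5391 and 3622 to 9767 CPM for 10 mesenchymal markers, with DMSO and Combo in that order. The share of mitochondrially encoded transcripts was 1.21 to 1.29% with DMSO and 1.93 to 2.52% with Combo, and its part in the results was not tested.

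In mitosis, Cdk1 bound to a B-type cyclin starts the condensation of chromosomes and the assembly of a bipolar spindle. Kinesins push the poles apart and move chromosomes, kinetochores tie each centromere to microtubules, and the checkpoint kinases and Mad2 hold Cdc20 inactive until every kinetochore is attached. Cdc20 then activates the anaphase-promoting complex, which marks securin and cyclin B for destruction, frees separase and lets the cell divide. Most of these genes are transcribed in G2 and M under FoxM1 and B-Myb with the MuvB core complex, which binds a short element called CHR (cell cycle genes homology region), often close to CCAAT boxes bound by NF-Y. Their level in a bulk sample depends both on how many cells are in G2 or mitosis and on how much RNA each such cell makes, which cannot be told apart here.

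The promoters of the members were searched for these letters. The members were named as mitotic genes, which are known for these elements, so an excess follows largely from the choice of genes. It does not depend on the treatments, and its part in the changes that follow was not tested. The RefSeq promoter table (build GRCm38.p6, the assembly of mm10, 250 bases before to 50 after each start site) held 52 promoters of 48 members. The CHR letters TTTGAA or TTTAAA, on either strand, were found in 75.0% of these promoters, against 19.3% of the 12828 promoters of tested genes and 27.6% of all 32851 promoters. CCAAT, on either strand, was found in 75.0% of the members' promoters against 38.2% and 37.4% of those sets, and both were found in 61.5% against 7.66% and 10.7%. The E2F letters TTTCGCGC, TTTGGCGC, TTCCCGCC or TTTCCCGC were found in 13.5% of the members' promoters, against 6.39% and 3.49%. A CCAAT box and the CHR letters can share at most their end base, and the E2F letters can overlap each other. The median GC content was 59.0% in the members' promoters and 60.7% in those of tested genes.

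Of the members' promoters, 19 (36.5%) held CHR letters 20 to 45 bases downstream of a CCAAT box, measured from first base to first base, against 1.36% of promoters of tested genes. This window of distances was chosen after the positions were seen. The stretches below are 150 bases each, from 158 to 9 bases before the annotated start, 5′ to 3′ on the strand of the gene. They are shown for 5 members with both letters in that stretch, for Kif15, which has CHR letters but no CCAAT, and for Mad2l1, which has neither, and capitals mark the CHR letters (TTTGAA or TTTAAA, or their reverse complement) and the CCAAT box (or its reverse complement).
Cdk1: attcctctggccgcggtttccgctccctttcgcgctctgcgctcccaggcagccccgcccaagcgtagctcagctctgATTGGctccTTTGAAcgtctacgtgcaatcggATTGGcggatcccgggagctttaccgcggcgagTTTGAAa
Ube2c: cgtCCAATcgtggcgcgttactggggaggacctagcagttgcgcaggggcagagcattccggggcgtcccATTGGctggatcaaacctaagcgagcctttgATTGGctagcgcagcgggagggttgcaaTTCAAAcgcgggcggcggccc
Top2a: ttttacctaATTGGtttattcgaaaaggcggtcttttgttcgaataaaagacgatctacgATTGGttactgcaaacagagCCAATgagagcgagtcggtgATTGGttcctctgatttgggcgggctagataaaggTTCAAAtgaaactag
Espl1: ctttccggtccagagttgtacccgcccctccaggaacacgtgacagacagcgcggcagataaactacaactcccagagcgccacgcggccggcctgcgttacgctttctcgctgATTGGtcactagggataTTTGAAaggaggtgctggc
Kif11: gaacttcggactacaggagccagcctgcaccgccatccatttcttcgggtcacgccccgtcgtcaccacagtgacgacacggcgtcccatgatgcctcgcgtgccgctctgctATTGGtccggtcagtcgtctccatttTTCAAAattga
Kif15: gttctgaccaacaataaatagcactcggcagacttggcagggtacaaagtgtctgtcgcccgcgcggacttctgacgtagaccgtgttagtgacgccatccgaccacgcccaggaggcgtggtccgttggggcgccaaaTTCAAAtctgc
Mad2l1: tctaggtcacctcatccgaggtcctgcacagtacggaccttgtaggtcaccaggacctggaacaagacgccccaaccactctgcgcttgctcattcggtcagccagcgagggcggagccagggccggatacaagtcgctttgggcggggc

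These stretches lie at chr10:69352921-69353070 on the minus strand (Cdk1), chr2:164769771-164769920 on the plus strand (Ube2c), chr11:99024198-99024347 on the minus strand (Top2a), chr15:102296135-102296284 on the plus strand (Espl1), chr19:37376224-37376373 on the plus strand (Kif11), chr9:122950923-122951072 on the plus strand (Kif15) and chr6:66535063-66535212 on the plus strand (Mad2l1). The CHR letters closest to the start began 15 bases before it in Cdk1, 29 in Ube2c, 23 in Top2a, 27 in Espl1, and 19 in both Kif11 and Kif15. The closest CCAAT box began 48 bases before the start in Cdk1, 57 in Ube2c, 58 in Top2a, 44 in Espl1 and 45 in Kif11. A match describes the letters and is not a measurement of binding.

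Combo against DMSO asks what blocking both receptors does to these genes. All 56 members had lower levels with Combo than with DMSO in each of the 3 lines, which held for 31.9% of all tested genes. By edgeR's quasi-likelihood test without pairing, 55 fell (adjusted p under 0.05 over all 13836 genes), where 8.28% of all tested genes were called lower. Adding the line to the fit as a block, which compares each treated library with the control of its own line, gave 56 of 56, against 26.2% of tested genes. The median log2 fold change of the members was -2.08, from -2.84 (Kif15) to -1.63 (Kif4), and that of all tested genes was 0.02. As a share of the DMSO mean, the Combo mean was 14.0% for Kif15 and 32.2% for Kif4, and every other member lay between them. In all 56 members the 3 Combo libraries lay below all 3 DMSO libraries, which held for 16.1% of all tested genes. Taken line by line, the members' median change was -2.39 for A1005, -1.77 for A1129 and -2.19 for A1471. In the unpaired fit, 36 members passed without A1129 and 19 without A1471, where 1.71% and 0.770% of tested genes were called lower, and with the block all 56 passed whichever line was left out, against 17.4% to 24.5% of tested genes.

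**Figure D1:**
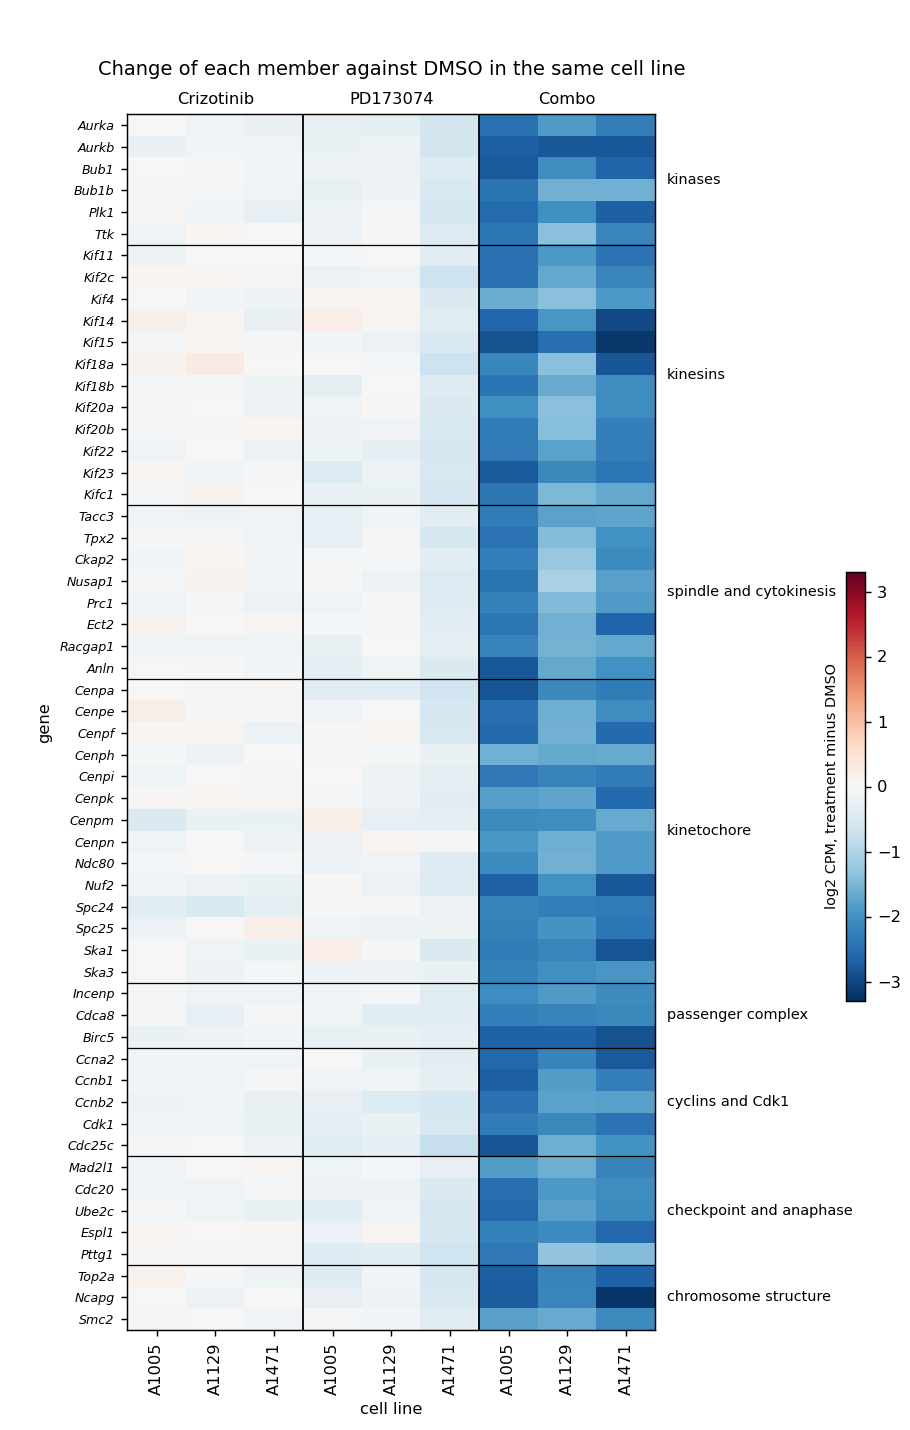
Change of each of the 56 members (rows, grouped by class) in log2 CPM against the DMSO library of the same cell line, for Crizotinib, PD173074 and Combo in lines A1005, A1129 and A1471 (columns). Blue is lower and red is higher. The Combo columns are blue throughout, palest in A1129 (median -1.77), and with PD173074 the A1471 column is the bluest (median -0.46).

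The kinases had a median log2 fold change of -2.27. Aurkb, the kinase of the chromosomal passenger complex, was measured in A1005, A1129 and A1471 at 82.0, 81.9 and 113 CPM with DMSO and 12.6, 11.6 and 16.0 CPM with Combo (log2 fold change -2.78 ± 0.21 (SE), adjusted p = 7.8e-05). Bub1b, which encodes BubR1 of the mitotic checkpoint complex, had the highest mean CPM of the class (CPM is not scaled to gene length) and the smallest change of the 6, at 205, 194 and 238 CPM with DMSO and 38.6, 64.4 and 79.2 CPM with Combo (log2 fold change -1.81 ± 0.23 (SE), adjusted p = 0.0012). The Combo libraries of both genes lay far under their controls, but Bub1b kept more of its transcript in A1471 and A1129 than in A1005. The other kinases also fell, with log2 fold changes of -2.48 for Bub1, a kinetochore kinase of the checkpoint, -2.35 for Plk1, a kinase of mitotic entry, -2.19 for the spindle pole kinase Aurka, and -1.89 for Ttk (Mps1), which starts checkpoint signalling.

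Among the kinesins, the median was -2.05. Kif15 (ENSMUSG00000036768, chr9:122951046-123018733, plus strand), a spindle motor that acts beside Kif11, had the largest fall of all 56 members, at 76.1, 82.5 and 85.4 CPM with DMSO and 10.3, 14.6 and 9.20 CPM with Combo (log2 fold change -2.84 ± 0.19 (SE), adjusted p = 4.6e-05). Kif4, a chromokinesin of chromosome arms and the spindle midzone, had the smallest, at 78.8, 121 and 137 CPM with DMSO and 25.1, 46.6 and 37.1 CPM with Combo (log2 fold change -1.63 ± 0.30 (SE), adjusted p = 0.0069). Kif20a, a midzone motor of cytokinesis with the highest mean CPM of the class, was at 201, 231 and 403 CPM with DMSO and 49.4, 88.6 and 97.6 CPM with Combo (log2 fold change -1.83 ± 0.36 (SE), adjusted p = 0.0096), with A1471 highest of the lines in both groups. The log2 fold change was -2.18 for Kif11 (Eg5), which separates the poles, -2.47 for Kif14, a kinesin of cytokinesis, -2.37 for Kif23, the motor of centralspindlin, and -2.09 for the depolymerase Kif2c. It was -2.09 for the chromokinesin Kif22, -2.02 for both Kif18a, which dampens chromosome movement, and the plus-end motor Kif18b, and -1.83 for both the pole-clustering Kifc1 and Kif20b, a kinesin of cytokinesis, and all of these passed the test. In all 12 kinesins A1129 had the smallest of the 3 falls.

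The proteins of the spindle and of cytokinesis had the smallest class median, -1.86, and ranged from -2.08 (Anln) to -1.72 (Nusap1). Anln, the anillin scaffold of the contractile ring, was at 431, 445 and 416 CPM with DMSO and 61.6, 139 and 104 CPM with Combo (log2 fold change -2.08 ± 0.26 (SE), adjusted p = 0.0011). Nusap1, a spindle and nucleolar protein, was at 110, 85.5 and 92.2 CPM with DMSO and 20.8, 40.3 and 26.5 CPM with Combo (log2 fold change -1.72 ± 0.26 (SE), adjusted p = 0.0027), and the A1129 library held 40.3 CPM against 20.8 CPM in A1005. Ect2, the exchange factor that activates RhoA for cytokinesis, was the 1 member that did not pass the unpaired test (log2 fold change -2.02 ± 0.66 (SE), adjusted p = 0.071). Its levels were 87.6, 251 and 181 CPM with DMSO, 95.6, 249 and 191 CPM with Crizotinib, 83.5, 239 and 141 CPM with PD173074 and 16.7, 82.9 and 28.7 CPM with Combo. The lines differed by 1.52 log2 units in Ect2 under DMSO, the widest range of any member, and each line was nonetheless lowest under Combo. With the line as a block the same change passed (log2 fold change -2.17 ± 0.20 (SE), adjusted p = 2.0e-05). The remaining members passed unpaired, with log2 fold changes of -1.86 for Racgap1, the centralspindlin partner of Kif23, -1.87 for Tpx2, the activator of Aurora A, -1.87 for Tacc3, which crosslinks kinetochore fibres, -1.81 for the midzone crosslinker Prc1 and -1.75 for the microtubule protein Ckap2.

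Among kinetochore genes the median was -2.12. Ska1, a subunit of the Ska complex that follows microtubule ends, was at 22.7, 28.3 and 45.4 CPM with DMSO and 4.50, 6.14 and 6.19 CPM with Combo (log2 fold change -2.52 ± 0.31 (SE), adjusted p = 0.0011). Cenph, a subunit of the constitutive centromere network, had the smallest change of the 14, at 28.9, 23.5 and 42.5 CPM with DMSO and 9.62, 7.14 and 13.4 CPM with Combo (log2 fold change -1.65 ± 0.35 (SE), adjusted p = 0.013). Cenpe, the kinetochore motor that aligns chromosomes, had the highest mean CPM of the class, at 225, 283 and 359 CPM with DMSO and 39.6, 93.3 and 86.0 CPM with Combo (log2 fold change -1.99 ± 0.32 (SE), adjusted p = 0.0035). The parts of the kinetochore overlapped in their changes. The 5 subunits of the constitutive centromere network (Cenph, Cenpi, Cenpk, Cenpm and Cenpn) ran from -2.29 to -1.65 with a median of -2.00, the 4 subunits of the microtubule-binding Ndc80 complex (Ndc80, Nuf2, Spc24 and Spc25) from -2.48 to -1.82 with a median of -2.24, and the 2 Ska subunits stood at -2.52 and -2.04. Cenpa, the centromeric histone, had a log2 fold change of -2.35 and Cenpf, a large outer kinetochore protein, of -2.18. Cenpm passed at an adjusted p of 0.032, and its A1005 level with DMSO, 46.1 CPM, was above the 23.6 CPM of A1129 and 20.5 CPM of A1471.

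**Figure D2:**
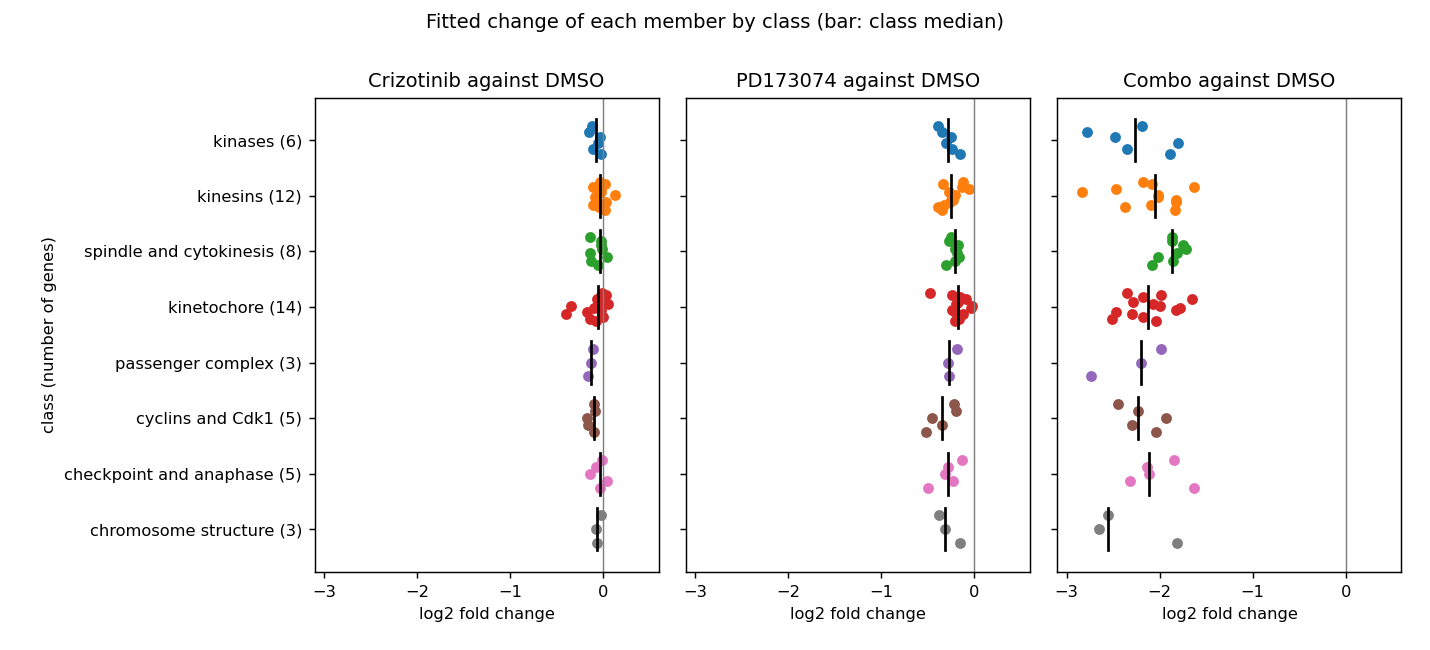
Fitted log2 fold change of each member against DMSO from the unpaired edgeR fit (x axis) by class (y axis), with 1 panel per treatment, where each point is a gene and each bar a class median. With Combo all points lie between -2.84 and -1.63 and the classes overlap, from a median of -1.86 for spindle and cytokinesis to -2.55 for chromosome structure, while with either inhibitor alone the points lie near 0.

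The chromosomal passenger complex, which corrects wrong attachments, held the member with the smallest p-value. Birc5 (survivin, ENSMUSG00000017716, chr11:117849251-117855743, plus strand) was at 145, 133 and 138 CPM with DMSO, 124, 119 and 129 CPM with Crizotinib, 123, 113 and 110 CPM with PD173074 and 22.7, 20.8 and 18.8 CPM with Combo. The 3 lines nearly coincided in each treatment, and Combo lay under the other 3 treatments by a wide gap. Its fall against DMSO (log2 fold change -2.74 ± 0.12 (SE), adjusted p = 5.8e-06) ranked first by p among all 13836 tested genes, unpaired and with the line as a block. Incenp, the scaffold of the complex, was at 110, 193 and 185 CPM with DMSO and 26.6, 52.6 and 43.8 CPM with Combo (log2 fold change -1.99 ± 0.35 (SE), adjusted p = 0.0052), and Cdca8 (borealin) fell by 2.20, with DMSO libraries between 83.9 and 88.2 CPM.

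The cyclins and Cdk1 regulators had a median of -2.23. Ccna2 (cyclin A2) had the largest change and the highest CPM of the 5, at 186, 477 and 374 CPM with DMSO and 30.7, 104 and 55.1 CPM with Combo (log2 fold change -2.45 ± 0.55 (SE), adjusted p = 0.018), and A1005 held the lowest level in both groups. Ccnb2 (cyclin B2) had the smallest change, at 106, 124 and 170 CPM with DMSO and 19.0, 36.5 and 49.2 CPM with Combo (log2 fold change -1.94 ± 0.33 (SE), adjusted p = 0.005). Cdk1, the kinase that drives entry into mitosis, was at 201, 163 and 188 CPM with DMSO, 186, 148 and 160 CPM with Crizotinib, 162, 140 and 131 CPM with PD173074 and 40.1, 37.5 and 34.6 CPM with Combo (log2 fold change -2.30 ± 0.15 (SE), adjusted p = 4.3e-05 for Combo against DMSO). The log2 fold change was -2.23 for Ccnb1 (cyclin B1) and -2.04 for Cdc25c, the phosphatase that activates Cdk1, and both passed.

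In the checkpoint and anaphase class, with a median of -2.11, Espl1 (separase, the protease that opens cohesin) was at 106, 100 and 129 CPM with DMSO and 22.3, 23.5 and 21.4 CPM with Combo (log2 fold change -2.32 ± 0.16 (SE), adjusted p = 4.6e-05). Pttg1 (securin, its inhibitor) had the smallest change, at 57.3, 55.6 and 65.5 CPM with DMSO and 11.1, 22.3 and 24.0 CPM with Combo (log2 fold change -1.64 ± 0.25 (SE), adjusted p = 0.0029). The Combo levels of Espl1 were nearly the same in the 3 lines, while those of Pttg1 were lowest in A1005. Ube2c, the ubiquitin-conjugating enzyme of the anaphase-promoting complex, was at 206, 238 and 182 CPM with DMSO and 33.9, 68.4 and 42.6 CPM with Combo (log2 fold change -2.11 ± 0.30 (SE), adjusted p = 0.002), and the log2 fold changes of Cdc20 and Mad2l1 (Mad2) were -2.13 and -1.85.

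Chromosome structure had the largest class median, -2.55, over only 3 genes. Top2a (topoisomerase II alpha, ENSMUSG00000020914, chr11:98992943-99024189, minus strand), which untangles sister chromatids, had the highest CPM of all 56 members, at 1116, 838 and 1246 CPM with DMSO, 1228, 815 and 1112 CPM with Crizotinib, 825, 790 and 855 CPM with PD173074 and 170, 181 and 195 CPM with Combo (log2 fold change -2.55 ± 0.20 (SE), adjusted p = 1.0e-04 for Combo against DMSO). Ncapg, a condensin subunit, was at 124, 198 and 205 CPM with DMSO and 18.3, 43.7 and 21.9 CPM with Combo (log2 fold change -2.65 ± 0.38 (SE), adjusted p = 0.0021), and Smc2, the condensin ATPase, at 183, 257 and 170 CPM with DMSO and 52.8, 81.3 and 39.8 CPM with Combo (log2 fold change -1.81 ± 0.33 (SE), adjusted p = 0.0067). Ncapg kept more transcript in A1129 than in the other two lines.

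Apart from the highest CPM named within classes and for Top2a, levels of different genes were set side by side per kilobase of annotated exon under DMSO. That length merges all annotated exons of a gene, which can exceed the length of the transcript expressed. Top2a had 118 ± 23.1 CPM per kb (SD, n = 3), followed by Cdc20 at 93.1 ± 9.05, Ccnb2 at 87.1 ± 21.8, Ccna2 at 84.6 ± 36.1 and Ube2c at 80.3 ± 10.8, and between each of these and the next the ranges of mean ± SD overlapped. The lowest was Cenpk at 2.15 ± 0.285 CPM per kb, followed by Kif18a at 3.58 ± 0.127. Between lines under DMSO, the members' range in log2 CPM had a median of 0.49, against 0.75 for all tested genes. It was above 1 log2 unit in 5 members (Kif20a, Kif20b, Cenpm, Ccna2 and Ect2). Ska1 lay at that limit, with a range of 1.0003 log2 units when taken from CPM without a prior count. The summed level of the 56 members was 7413, 8361 and 8934 CPM in A1005, A1129 and A1471 with DMSO and 1365, 2396 and 1883 CPM with Combo. A1129 held the highest Combo level in 37 of 56 members and had the smallest fall against its own control in 48.

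**Figure D3:**
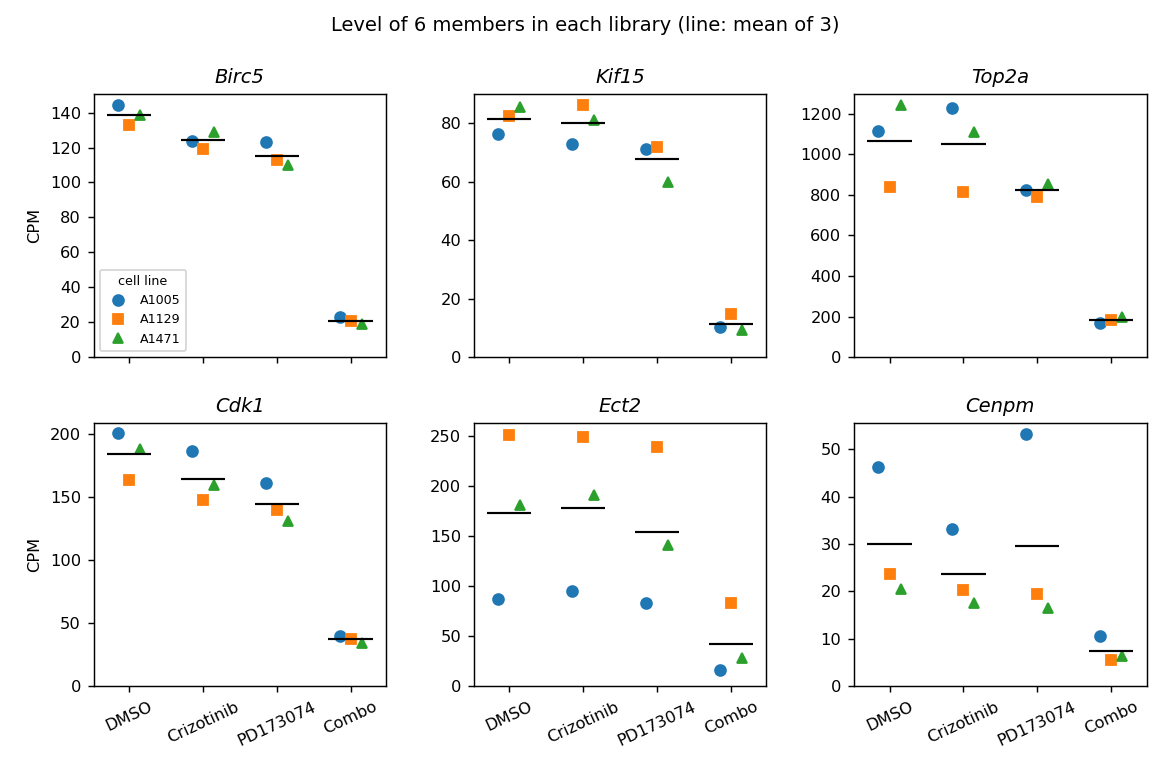
CPM of Birc5, Kif15, Top2a, Cdk1, Ect2 and Cenpm in each of the 12 libraries (y axis from 0, 1 symbol per cell line, horizontal line the mean of 3) by treatment. The Combo points of Birc5 lie at 18.8 to 22.7 CPM in all 3 lines, whereas Ect2 spans 16.7 to 82.9 CPM.

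Combo was also set against each inhibitor alone, which asks what each receptor's inhibitor adds to the other. These comparisons share the Combo libraries with the one above. Against Crizotinib, 54 of 56 members fell (7.78% of tested genes were called lower). The median of the log2 fold changes was -2.03, and Ect2 and Cenpm did not pass. Against PD173074, 52 of 56 fell (3.93% of tested genes), with a median of -1.81, and Ect2, Cenpm, Kif20b and Cdc25c did not pass. Without A1471 the unpaired counts were 16 and 11, against 0.685% and 0.428% of tested genes, and without A1129 the count against PD173074 was 17, against 0.435%. With the line as a block all 56 fell in both comparisons, against 26.0% and 20.2% of tested genes. Birc5 had log2 fold changes of -2.58 against Crizotinib and -2.47 against PD173074. The smallest change against PD173074 was that of Pttg1, which fell by 1.14.

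PD173074 alone asks what FGF receptor inhibition does. No member passed the test, unpaired or with the block, where 0% and 0.520% of tested genes were called lower, and at an unadjusted p under 0.05 edgeR counted 3 members unpaired (Cdk1, Birc5 and Cdca8) and 12 with the block. Over all tested genes 2.22% and 15.7% lay under that p, so the count with the block was near the background. The fitted change was below 0 in all 56 members, with a median of -0.23 and a range of -0.52 (Cdc25c) to -0.02 (Cenpm), and the median over all tested genes was 0.00. Levels were lower than DMSO in all 3 lines for 44 of 56 members (78.6%), against 23.2% of all tested genes. All 3 PD173074 libraries lay below all 3 DMSO libraries in 13 members, against 3.07% of tested genes. Cdk1 had the lowest adjusted p with the block (log2 fold change -0.35 ± 0.09 (SE), adjusted p = 0.075), and its PD173074 levels of 162, 140 and 131 CPM all lay below its DMSO levels. The lines had median changes of -0.17 (A1005), -0.13 (A1129) and -0.46 (A1471), and A1471 had the lowest value of the 3 lines in 54 of 56 members. With 1 library per line and treatment, that difference between lines was not tested.

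Crizotinib alone asks what Met inhibition does. No member passed in either fit, where 0% of tested genes were called lower in both, and at an unadjusted p under 0.05 edgeR counted 0 members unpaired and 1 with the block (Spc24). Over all tested genes 0.130% and 1.86% lay under that p, so 1 of 56 is the background share. The median was -0.06, with a range of -0.39 (Spc24) to 0.13 (Kif18a). A fitted change below 0 was found in 47 members (83.9%), against 50.3% of all tested genes. Levels were lower than DMSO in all 3 lines for 28 of 56 members, against 17.6% of all tested genes. The Crizotinib libraries lay below the DMSO libraries in 2 members (Birc5 and Prc1), against 0.853% of tested genes. Spc24, a subunit of the Ndc80 complex, was at 34.4, 28.4 and 37.6 CPM with DMSO and 26.7, 19.9 and 29.9 CPM with Crizotinib, lower in each line with groups that overlapped.

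Whether Combo departed from the sum of both single changes was tested with the interaction of the 2 inhibitors, in which a negative value is a level under that sum. The fitted departure was below 0 in all 56 members, with a median of -1.77. In the unpaired fit 23 of 56 passed as lower, against 0.911% of tested genes, and with the block all 56 passed, against 10.7%. Birc5 had the smallest p-value of all tested genes here too (log2 difference -2.31 ± 0.16 (SE), adjusted p = 7.8e-04). In the order of p it was followed among members by Cdca8 (log2 difference -1.79 ± 0.18 (SE), adjusted p = 0.0022), Kif15 (log2 difference -2.55 ± 0.25 (SE), adjusted p = 0.0022), Espl1 (log2 difference -2.13 ± 0.21 (SE), adjusted p = 0.0022) and Bub1 (log2 difference -2.19 ± 0.25 (SE), adjusted p = 0.0039). With the block the 5 members with the smallest p were Birc5, Aurkb (log2 difference -2.30 ± 0.15 (SE), adjusted p = 3.9e-05), Cenpi (-2.08), Cdk1 (-1.78) and Kif15. The unpaired calls included members of every class, from 1 of 8 in spindle and cytokinesis to 2 of 3 in the passenger complex, and Pttg1 had the smallest departure, -1.11 ± 0.34 (SE). When any single line was left out, 0 of all tested genes passed in the unpaired edgeR fit, members included (at an unadjusted p under 0.05 there were 48 to 51 members among 675 to 1486 genes), while with the block 47 to 56 members passed, against 2.70% to 8.81% of tested genes.

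**Figure D4:**
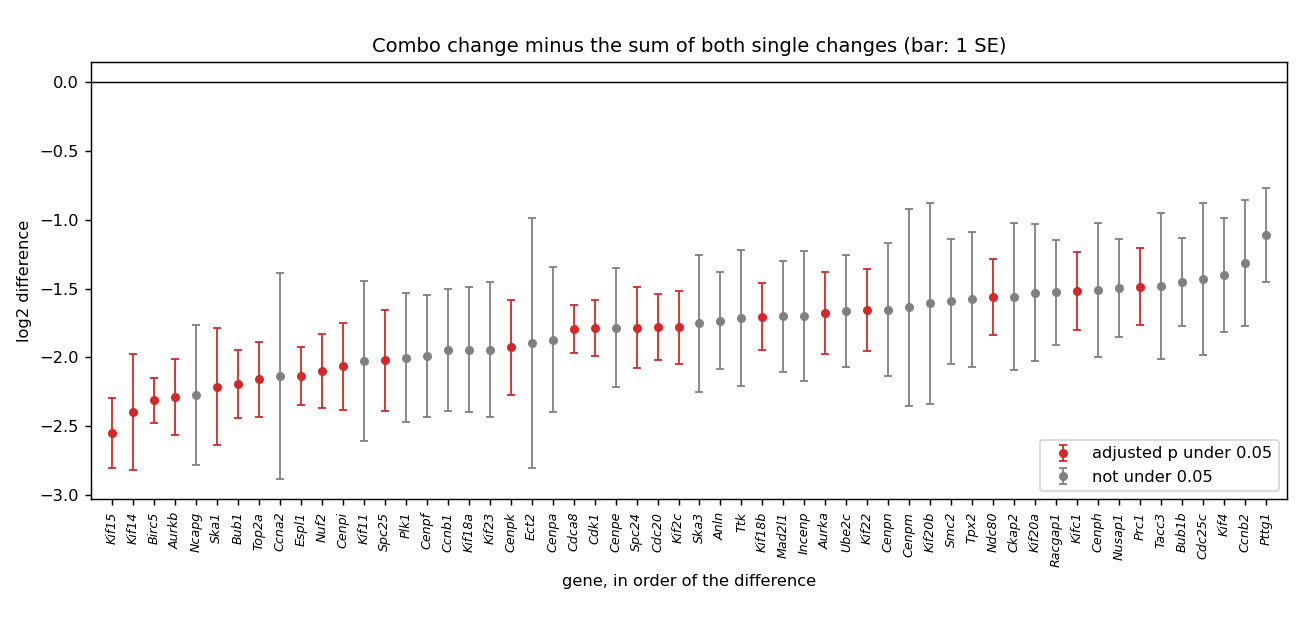
Log2 difference between the Combo change and the sum of the Crizotinib and PD173074 changes for each member (y axis, 1 SE bars, unpaired edgeR fit), in order of size (x axis). All 56 values lie below 0, from -2.55 (Kif15) to -1.11 (Pttg1), and the 23 in red have an adjusted p under 0.05.

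Other genes of mitosis and of its control were counted in the same fits for Combo against DMSO, where 8.28% of tested genes were called lower and 6.10% higher unpaired, and 26.2% and 28.6% with the block. Of 76 other mitotic genes, 63 fell and 0 rose (75 and 0 with the block), with a median of -1.86. The log2 fold change was -3.71 for Pbk, a mitotic kinase, and -3.07 for Sapcd2, whereas Wee1, the kinase that holds Cdk1 inactive, stood at 39.4 ± 8.81 CPM with DMSO and 51.3 ± 28.3 CPM with Combo (SD, n = 3) and did not pass (adjusted p = 0.58 by edgeR). The 14 core subunits of the anaphase-promoting complex, on which Cdc20 and Ube2c act, had a median of -0.31, with Anapc1 lower (log2 fold change -0.49 ± 0.12 (SE), adjusted p = 0.024), Anapc2 higher (log2 fold change 0.47 ± 0.13 (SE), adjusted p = 0.041) and the other 12 not passing, so that each direction held about the background share. The fitted log2 fold changes of Anapc15 (-1.01), Cdc23 (-0.50) and Anapc13 (0.49) did not pass unpaired. With the block 8 of the 14 core subunits were called lower, a larger share than the 26.2% of all tested genes. The 2 called higher with the block (Anapc2 and Anapc13) were a smaller share than the 28.6% of all tested genes. Of 11 tubulins, 6 fell and 0 rose, with a median of -0.97 (7 fell and 2 rose with the block), and the log2 fold change was -2.70 for Tubb6 and -2.03 for Tubb4b. Tubb2a (log2 fold change 1.40) and Tubb2b (1.55) passed as higher only with the block, and 2 of 11 is a smaller share than the 28.6% of all tested genes.

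Of 26 regulators upstream of cell cycle transcription, 11 fell and 0 rose unpaired, and 15 fell and 2 rose with the block (Rb1 and Rbl2, again a smaller share than that of all tested genes), with an unpaired median of -0.76. Mybl2 (B-Myb) was at 101 ± 12.9 CPM with DMSO and 12.1 ± 1.61 CPM with Combo (SD, n = 3; log2 fold change -3.06), and Foxm1 at 155 ± 16.5 and 41.5 ± 11.5 CPM (-1.90). The log2 fold change was -1.17 for Lin9, a subunit of the MuvB core, and -3.76 for E2f8, a repressor of the E2F family. E2f1 went from 55.4 ± 18.9 to 30.3 ± 9.86 CPM, which did not pass unpaired (adjusted p = 0.14) and passed with the block (adjusted p = 7.5e-05), and Cdkn1a, the inhibitor p21, was at 93.2 ± 24.7 and 69.7 ± 33.9 CPM and passed in neither fit. Rb1, at 20.2 ± 2.93 CPM with DMSO and 74.8 ± 71.8 CPM with Combo, passed only with the block (adjusted p = 0.0052), as did Rbl2 (adjusted p = 0.0066), both of them pocket proteins that repress E2F targets. Of 41 genes of the G1/S programme, 36 fell and 0 rose (41 and 0 with the block), with a median of -1.79. The largest falls in that list were those of E2f8, given above, and of Rrm2, a subunit of ribonucleotide reductase, which fell by 3.12. Of the mesenchymal markers, 8 were tested, and Twist1 (-1.09) and Twist2 (-0.82) passed as lower unpaired. The highest fitted changes, of Sparc (1.84) and Fn1 (1.64), did not pass unpaired. With the block 3 of the 8 fell and 2 rose, against 26.2% and 28.6% of all tested genes.

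Members were also grouped by the letters in their promoters. With both letters, 30 members had a median change of -2.12 with Combo against DMSO, and the 7 with CHR letters only had a median of -2.08. The 5 with CCAAT only (Bub1, Cenph, Cenpi, Cenpk and Cenpm) had a median of -2.07, and the 6 with neither (Kif18a, Mad2l1, Nuf2, Nusap1, Pttg1 and Tacc3) had a median of -1.86. The ranges overlapped, from -2.65 to -1.63 with both letters, -2.84 to -1.82 with CHR only, -2.48 to -1.65 with CCAAT only and -2.48 to -1.64 with neither, and no test was made.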

How the data were processed

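The authors deposited raw counts (whole reads assigned to each Ensembl gene) for 12 libraries sequenced on a NextSeq500 instrument. Per the labels, reads were handled with bcl2fastq, STAR and HTSeq on genome build mm10, and versions, use of strand and annotation release are not given in the sources used here, so genes that overlap or share reads with paralogs are uncertain. The members and lists were chosen with earlier results of these data known. Treatment and line came from the sample labels. Samples were paired by line in the fits with the block and in changes taken line by line, since libraries of 1 line share their cells. Deviations from treatment means correlated at 0.871 on average between libraries of the same line and -0.422 between lines. The negative value follows from centring each treatment on the mean of its 3 lines, which ties it to the value within lines. It is no measure of opposition between lines. Genes were kept by filterByExpr (minimum count 10, minimum total 15), scaled by TMM and tested with edgeR 4.0.16 (R 4.3.3) by the two-sided quasi-likelihood test without the line, as the study analysed them, adjusting p by Benjamini-Hochberg and calling genes under 0.05. CPM use TMM library sizes, and log2 CPM a prior count of 2. The 3 lines per treatment are 1 library each, so p-values without the block set a change against the spread between lines. Those with the block set it against the spread left once differences between lines are removed. Alternatives were a block for the line, limma-voom (limma 3.58.1), DESeq2 1.42.0, other scalings, filters and thresholds, only the compared groups, and leaving out each line. Gene positions came from GENCODE and promoters from RefSeq. Named by rule were, in each class, the largest change, the smallest change and the highest mean CPM, members that did not pass, and the 5 lowest p of the departure. Of each list of mitotic and cell cycle genes and of the mesenchymal markers, the 2 lowest and 2 highest fitted changes were named where they lay below or above 0, with Foxm1, Mybl2, Lin9, E2f1 and Cdkn1a. Anapc1 was added after its value was seen, and the markers of other cell types are given by their summed levels. The fits were also run on simulated data with known changes in randomly drawn genes, in both directions. That setting differs from a set of genes that fall together, and its outcome is not given here.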

Additional observations from a re-analysis of the deposited data

How the results depend on the processing

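All 56 members had a fitted change below 0 in Combo against DMSO under each other scaling, filter, tool and choice of libraries, from -2.86 to -1.58 with all lines and from -3.04 to -1.37 with 1 line left out. The cell line as a block brought the count for the departure from additivity to 56 members against 23, and DESeq2 to 43. Of all 13836 tested genes, 1486 were called lower there with the block, 126 unpaired and 385 by DESeq2, which gave 3162 of these genes no adjusted p. With only the Combo and PD173074 libraries in the fit, 18 members passed in that comparison against 52. In it, 116 of 12821 tested genes were called lower, against 544 of 13836. These alternatives use the same libraries with another estimate of the spread or fewer libraries. Leaving out a line in turn gave 19 to 50 members unpaired in Combo against DMSO, 16 to 49 against Crizotinib, 11 to 39 against PD173074 and 0 in the departure. In that order, 0.770% to 8.42%, 0.685% to 7.64%, 0.428% to 3.77% and 0% of tested genes were called lower. With the line as a block the same runs gave 56 in the first 3 and 47 to 56 in the departure. The block itself was planned, but joining it with leaving out a line was chosen after seeing the data. The shares of tested genes were then 17.4% to 24.5%, 16.5% to 23.8%, 11.1% to 18.9% and 2.70% to 8.81%. For single inhibitors every alternative kept the count at 0. The block changed no other count of members by over 1.5 times. Over all tested genes, Combo against DMSO called 1146 lower and 844 higher unpaired, and 3625 and 3953 with the block, 108 and 12 without A1471, 236 and 88 without A1129, and 389 and 205 with only the Combo and DMSO libraries. Each member had at least 27 reads in every library, and depth was not varied.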
